A study of Mus musculus with 48 samples.

Results

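The genes described here are those of the major histocompatibility complex (MHC) and of the interferon response in mouse cerebral cortex. They were chosen by name alone: every gene whose symbol began with H2- or named B2m, Tap1, Tap2, a Tapbp gene, an Ifit, Ifi, Irf, Oas or Gbp gene, Isg15, Nlrc5, Usp18, Bst2 or one of a few further regulators such as Stat2. Of the 48795 genes in the deposited count table, 107 matched, and the 77 with at least 100 counts summed over all libraries were kept. The other 30 matching genes had fewer counts and were not followed. A filter on low counts left 75 of the 77 among 19547 genes tested, and the untested 2 were H2-Q2 and Oas1g.

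RNA was sequenced from the cerebral cortex of 48 C57BL/6 mice aged 12 months, 8 per genotype with 4 females and 4 males each. The tested genotypes were Q140 Msh3-/-, Q140 Msh3+/-, Q140, Msh3-/- and Msh3+/-, and the reference was wild type. Q140 is a knock-in at the mouse huntingtin gene Htt that lengthens its CAG repeat, as in Huntington disease, and the labels give it as heterozygous in all carriers. Msh3 encodes a DNA mismatch repair protein that acts on repeat loops and is known as a modifier of CAG repeat expansion. Which part of Msh3 was altered is not stated in the labels.

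MHC class I molecules consist of a polymorphic heavy chain, encoded in mice by H2-K1, H2-D1 and relatives on chromosome 17, and the invariant beta-2 microglobulin encoded by B2m. They present cytosolic peptides that Tap1 and Tap2 pump into the endoplasmic reticulum and that tapasin (Tapbp) helps to load. Class II molecules (H2-Aa, H2-Ab1, H2-Eb1) are made mainly by professional antigen presenting cells, which in brain sit mostly at the borders, while Stat2 and Irf9 help to carry the type I interferon signal to genes such as Ifit3, Oasl2 and Isg15.

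Promoters of 4 members are shown for a sequence element through which this last step runs. They come from RefSeq on GRCm38.p6 and span 250 bases before to 50 after each gene start, written 5′ to 3′ on the gene's own strand. Capitals mark matches on either strand to GAAA, any 2 bases and GAAA, a short form of the interferon-stimulated response element. Ifit3 and Isg15 are interferon-induced genes with several matches, and B2m has a single match. H2-Q6, a class I gene of the Q region, has no match to this short form.
Ifit3 (chr19:34583279-34583578, plus strand): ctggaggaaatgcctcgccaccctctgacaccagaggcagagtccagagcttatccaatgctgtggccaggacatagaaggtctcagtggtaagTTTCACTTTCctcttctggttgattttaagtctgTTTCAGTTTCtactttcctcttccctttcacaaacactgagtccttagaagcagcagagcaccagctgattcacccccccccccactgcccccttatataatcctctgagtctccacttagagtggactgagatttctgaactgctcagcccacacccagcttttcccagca
Isg15 (chr4:156200769-156201068, minus strand): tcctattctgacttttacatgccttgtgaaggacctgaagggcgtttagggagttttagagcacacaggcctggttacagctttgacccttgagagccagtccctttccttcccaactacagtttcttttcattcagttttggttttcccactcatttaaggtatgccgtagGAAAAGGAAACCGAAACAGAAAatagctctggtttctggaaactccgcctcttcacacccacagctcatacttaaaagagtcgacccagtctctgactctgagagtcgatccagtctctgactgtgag
B2m (chr2:122147437-122147736, plus strand): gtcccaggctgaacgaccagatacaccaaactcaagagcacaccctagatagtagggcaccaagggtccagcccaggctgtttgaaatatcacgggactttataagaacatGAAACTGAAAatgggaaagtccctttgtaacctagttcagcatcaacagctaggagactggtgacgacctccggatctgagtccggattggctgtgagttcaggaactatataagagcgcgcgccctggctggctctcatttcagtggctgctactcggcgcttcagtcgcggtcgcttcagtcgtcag
H2-Q6 (chr17:35424600-35424899, plus strand): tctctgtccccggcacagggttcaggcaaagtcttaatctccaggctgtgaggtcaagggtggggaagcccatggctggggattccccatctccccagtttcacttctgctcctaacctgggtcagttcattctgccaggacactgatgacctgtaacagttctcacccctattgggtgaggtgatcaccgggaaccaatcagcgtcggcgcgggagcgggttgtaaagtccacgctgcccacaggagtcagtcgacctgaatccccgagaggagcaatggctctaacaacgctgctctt
Overlapping matches run together in Isg15. A promoter was in the table for 53 of the 77 members, and 19 of those 53 (35.85%) held the motif, against 1131 of all 32851 promoters (3.44%). By role, it stood in 5 of 6 Ifit promoters, 4 of 4 Gbp promoters and 3 of 5 Oas promoters, but in 0 of 5 Ifi promoters. None of the 7 class II promoters and neither classical heavy chain promoter held it. A palindrome for STAT dimers, TTC, any 3 bases and GAA, was found in 11 of the 53 member promoters (20.75%), against 8.3% of all promoters. A match is a description of letters and not evidence that a factor binds there. Absence of this short form is likewise not evidence that a promoter lacks a response element. The H2-Q6 and H2-K1 promoters hold tttcacttct, which shares its leading letters with the Ifit3 match TTTCACTTTC but was not counted.

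Levels are given as FPKM, counts divided by gene length and by the library total, where genes are compared with each other. Between libraries they are given as CPM, counts relative to the library total scaled by the trimmed mean of M-values. B2m was by far the most abundant member at 105 ± 9.99 FPKM (SD, n = 48 libraries). H2-D1 followed at 16.2 ± 1.68 FPKM and Ifi27, a mitochondrial interferon-induced protein, at 9.77 ± 0.98 FPKM. H2-K1 averaged 8.70 ± 1.41 FPKM. B2m and H2-D1 were the 2 members above 10 FPKM, 31 members lay from 1 to 10 FPKM, and 44 were under 1 FPKM.

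The peptide loading genes were expressed at unequal levels. Tapbp averaged 7.40 ± 0.53 FPKM and its relative Tapbpl 3.52 ± 0.32 FPKM, whereas Tap1 averaged 0.594 ± 0.10 FPKM. Among the nonclassical heavy chains, H2-T22 was at 5.39 ± 0.37 FPKM and H2-T23, the mouse Qa-1 gene that presents signal peptides to natural killer cell receptors, at 3.98 ± 0.40 FPKM. The peptide-presenting class II chains were low: H2-Eb1 averaged 0.722 ± 0.27 FPKM, H2-Aa 0.463 ± 0.21 FPKM and H2-Ab1 0.454 ± 0.21 FPKM. H2-DMa, a chain of the class II peptide editor, was higher at 5.07 ± 0.51 FPKM.

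Among the regulators, Stat2 stood at 7.22 ± 0.53 FPKM, Irf2 at 5.28 ± 0.47 FPKM and Irf3 at 5.0 ± 0.39 FPKM. Irf7, which amplifies type I interferon output, averaged 0.469 ± 0.12 FPKM, and Nlrc5, the transactivator of class I genes, 0.160 ± 0.051 FPKM. Ifit3 and Ifit2 averaged 3.93 ± 0.62 and 3.12 ± 0.28 FPKM. The 2',5'-oligoadenylate synthetases were lower, with Oas1c at 0.595 ± 0.11 FPKM and Oasl2 at 0.473 ± 0.090 FPKM. Ifi30, a lysosomal thiol reductase of antigen processing, averaged 2.05 ± 0.32 FPKM. The guanylate-binding proteins Gbp3 and Gbp2 averaged 1.33 ± 0.27 and 1.15 ± 0.30 FPKM. Bst2 (tetherin), Isg15, a ubiquitin-like modifier, and Usp18, the protease that removes it, averaged 1.43 ± 0.38, 1.02 ± 0.31 and 0.264 ± 0.078 FPKM.

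**Figure D1:**
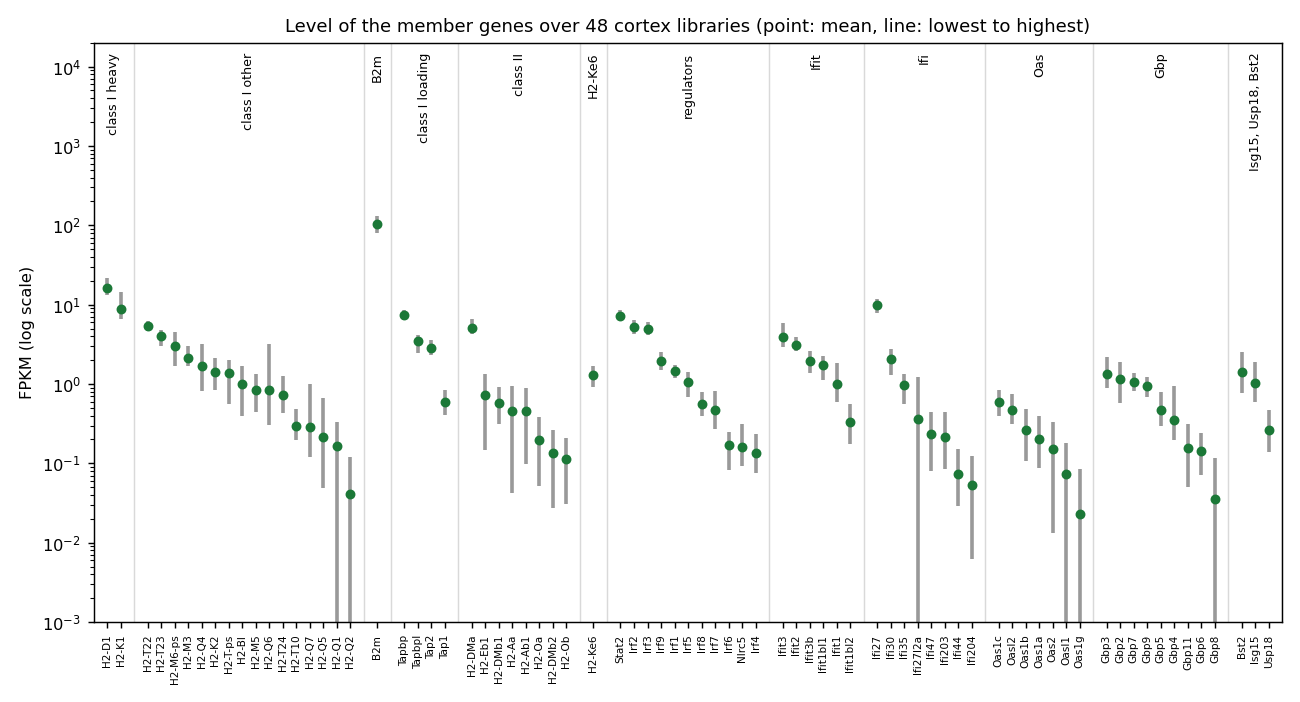
Level of the member genes in FPKM on a log axis, grouped by role. Points are means over 48 libraries and lines run from the lowest to the highest library, reaching the bottom edge where a library was at 0. B2m stands at 105 FPKM, and 44 of the 77 genes lie under 1 FPKM.

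Library totals ranged from 37.7 to 68.3 M counts with a median of 48.6 M. The targeted gene did not check the Msh3 labels as a loss of RNA: Msh3 counts were higher in mutants, at 99.2 ± 8.15 CPM in Msh3-/-, 60.1 ± 3.06 CPM in Msh3+/- and 22.4 ± 1.16 CPM in wild type (SD, n = 8 each). The same order held with the Q140 allele, at 95.3 ± 8.03, 57.9 ± 3.01 and 21.8 ± 0.979 CPM in Q140 Msh3-/-, Q140 Msh3+/- and Q140. The genotypes are called by their labels throughout. Cortical excitatory neuron genes summed to between 6131 and 7482 CPM in every library, and striatal projection neuron genes to between 141 and 184 CPM. Some libraries held RNA of neighbouring tissue. Choroid plexus genes summed to 620 CPM in Msh3+/- male 2 against a median of 7.31 CPM, pituitary genes summed to 45.4 CPM in wild-type male 2 against a median of 0.794 CPM, and 9 libraries lay more than 3 median absolute deviations above the median in either list. Of those 9 libraries, 4 were wild type, and wild-type female 4 was the only female. Msh3+/- male 2 alone stood apart by choroid plexus genes. The others did so by pituitary genes, with sums down to 3.22 CPM in Q140 male 2. The wild-type females 3 and 4 bore name prefixes unlike those of the other 46 libraries. Among those 46, the prefixes of Q140 female 4 and Q140 male 4 began with Msh3Q and the others with Mh3Q. What a prefix stands for is not stated in the labels. Fewer cells of a type and less RNA per cell cannot be told apart in bulk tissue.

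Levels across genotypes were compared first. For each tested member, the highest of the 6 genotype means was divided by the lowest, and the median of this ratio was 1.21. It was under 1.2 for 34 of the 75 members and over 1.5 for 11. B2m had means of 91.2 ± 11.7 CPM in Q140 Msh3-/-, 86.7 ± 5.23 CPM in Q140 Msh3+/-, 89.6 ± 10.1 CPM in Q140, 89.2 ± 10.7 CPM in Msh3-/-, 90.2 ± 4.24 CPM in Msh3+/- and 93.7 ± 10.8 CPM in wild type (SD, n = 8 each). The highest and the lowest of these means, wild type and Q140 Msh3+/-, differed by less than the SD of wild type and by more than that of Q140 Msh3+/-. Genes with few reads had the widest ratios, up to 2.95 for Gbp8, whose mean level of 0.0361 FPKM was the lowest of the tested members.

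The first comparison asked what the Q140 allele alone did to these genes. Against wild type, 2 of the 75 members were called at an adjusted p under 0.05 by edgeR's quasi-likelihood test with Benjamini-Hochberg adjustment over all 19547 genes, and both were lower. Over all genes 0.102% were called in this comparison and 0.0614% were called lower. The 2 members were H2-Bl and H2-T-ps, neighbouring class I sequences of the T region that are annotated as pseudogenes.

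H2-Bl (ENSMUSG00000073406, a polymorphic pseudogene, chr17:36080115-36084223, minus strand, GRCm38) had CPM values from 0.659 to 1.40 in Q140 with a median of 1.14, against 1.12 to 2.63 with a median of 1.97 in wild type. All 8 Q140 libraries lay below the wild-type median and 4 lay below the lowest wild-type library, wild-type male 1. The other 7 wild-type libraries lay above the highest Q140 library. The log2 fold change was -0.82 ± 0.171 (SE) with an adjusted p of 0.0219 from edgeR.

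H2-T-ps (ENSMUSG00000073405, an unprocessed pseudogene, chr17:36109234-36111658, minus strand) ranged from 0.594 to 1.40 CPM in Q140 with a median of 1.22, against 1.38 to 2.05 CPM with a median of 1.77 in wild type. The groups touched at a single library on either side: 7 of 8 Q140 libraries were below every wild-type library. The log2 fold change was -0.70 ± 0.157 (SE) with an adjusted p of 0.0483 from edgeR. Both genes rest on few reads, with 3968 counts for H2-Bl and 3464 for H2-T-ps summed over 48 libraries.

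Both calls were close to the threshold. They were lost with a term for the plate column (edgeR adjusted p of 0.072 for H2-Bl and 0.247 for H2-T-ps) and, in an alternative added after seeing the data, without wild-type females 3 and 4 (0.0503 and 0.126). Leaving out Q140 female 3 ended both calls (edgeR adjusted p of 0.103 and 0.171), and so did leaving out Q140 male 2, wild-type female 1 or wild-type female 2. The H2-Bl call was also lost without wild-type male 2 (0.0694). The H2-T-ps call was lost in 25 of the 48 fits that left out 1 library, 14 of them without a library of another genotype. Of the log2 fold changes in fits that left out 1 library, those nearest 0 were -0.72 for H2-Bl and -0.59 for H2-T-ps, both without Q140 female 3.

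Neighbouring class I genes gave values near 0. H2-Bl and H2-T-ps lie 25 kb apart, and H2-T22, H2-T23 and H2-T10 lie beside them. Their log2 fold changes in Q140 over wild type were -0.03 ± 0.052 for H2-T22, 0.015 ± 0.072 for H2-T23 and -0.032 ± 0.150 for H2-T10 (SE), and none was called. Of the 112 other tested genes in the span of the chromosome 17 members, 0 were called by edgeR, beside 0.102% of all genes. At an unadjusted p under 0.05 there were 12 of the 112, beside 8.8% of all genes. In Q140 carriers over non-carriers 1 of the 112 was called, Tubb5, beside 1.47% of all genes. Sequence is shared between these genes: 29.4% of the 50-base stretches of H2-T-ps also occur in other genes, most of them in H2-T23, and 9.4% of those of H2-Bl. How reads that match several genes were counted is not given in the sources used here, so the counts of both are uncertain to that extent. H2-T-ps also overlaps exons of Gm7030 on its own strand (1.3% of its exon length) and of BC023719 on the other (0.1%).

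In the other Msh3 genotypes the same comparison of Q140 with its non-carrier was not called. Q140 Msh3+/- had 1.45 ± 0.307 CPM of H2-Bl, against 2.09 ± 0.542 CPM in Msh3+/- (SD, n = 8 each), a log2 fold change of -0.52 ± 0.162 (SE) with an adjusted p of 0.361 from edgeR. Q140 Msh3-/- had 1.79 ± 0.281 CPM, against 1.64 ± 0.465 CPM in Msh3-/-, a log2 fold change of 0.11 ± 0.158 (SE) with an adjusted p of 0.917 from edgeR. The Q140 effect on H2-Bl thus had a negative value in 2 of the 3 Msh3 backgrounds. H2-T-ps had log2 fold changes of -0.33 ± 0.154 and -0.16 ± 0.153 (SE) in the Msh3+/- and Msh3-/- backgrounds, and neither was called.

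Averaged over the 3 Msh3 genotypes, Q140 carriers were lower than non-carriers for both genes. H2-Bl ranged from 0.659 to 2.14 CPM with a median of 1.40 in the 24 carriers, against 1.08 to 2.84 CPM with a median of 1.89 in the 24 non-carriers. The log2 fold change was -0.41 ± 0.0948 (SE) with an adjusted p of 0.0140 from edgeR. H2-T-ps ranged from 0.594 to 1.84 CPM in carriers with a median of 1.26, against 1.03 to 2.12 CPM with a median of 1.68 in non-carriers. Its log2 fold change was -0.40 ± 0.0893 (SE) with an adjusted p of 0.0119 from edgeR. Here 2 of 75 members were called, both lower, beside 1.47% of all genes called and 0.762% called lower. At an unadjusted p under 0.05 there were 5 members, beside 15.1% of all genes. Both calls held without each library in turn. They were lost without the 9 libraries set apart by choroid plexus or pituitary genes (edgeR adjusted p of 0.0875 for H2-Bl and 0.0833 for H2-T-ps). The H2-T-ps call was also lost with the plate column term (edgeR adjusted p = 0.0841). In a test of any difference among the 6 genotypes, which called 0.45% of genes, H2-Bl was called (edgeR adjusted p = 0.00928) and H2-T-ps was not (edgeR adjusted p = 0.0888). Without the 9 libraries the H2-Bl call was lost there too (edgeR adjusted p = 0.175). In this test 5 members had an unadjusted p under 0.05, beside 11.4% of all genes.

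**Figure D2:**
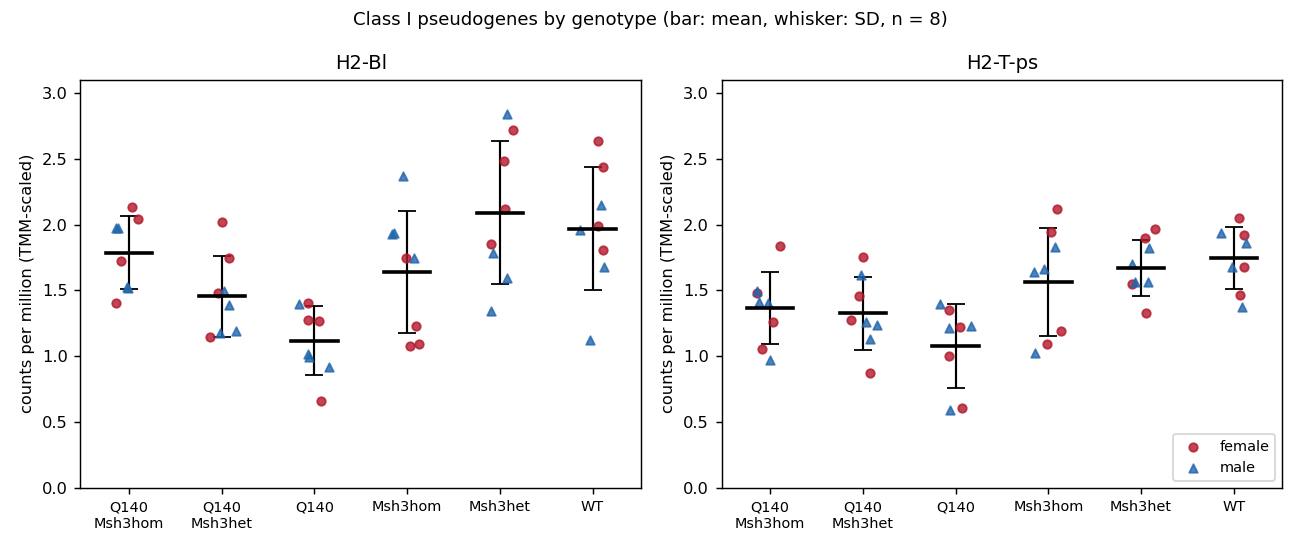
CPM of H2-Bl and H2-T-ps in each library by genotype, with females as circles and males as triangles; bars are means and whiskers SD of 8 libraries, and Msh3hom and Msh3het stand for Msh3-/- and Msh3+/-. Q140 has the lowest mean of both genes, at 1.12 CPM for H2-Bl and 1.08 CPM for H2-T-ps, against 1.97 and 1.75 CPM in wild type.

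The expressed class I genes gave values near 0 in the same comparison. H2-K1 ranged from 17.5 to 28.8 CPM in Q140 and from 18.9 to 29.7 CPM in wild type, and its log2 fold change was -0.01 ± 0.10 (SE). H2-D1 had a log2 fold change of 0.02 ± 0.066 and B2m one of -0.06 ± 0.063. The groups overlapped along their whole range for these genes. The 15 other class I genes had 4 values above 0 and 11 below, with a median of -0.09 that includes both called genes. The 4 loading genes ran from -0.02 to 0.05.

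Interferon-response genes were spread around slightly negative values. Ifit3 ranged from 5.17 to 8.21 CPM in Q140 and from 5.17 to 7.73 CPM in wild type, with a log2 fold change of -0.03 ± 0.103 (SE). Isg15 was at 0.518 to 0.892 CPM in Q140 and 0.578 to 1.17 CPM in wild type, with a log2 fold change of -0.13 ± 0.218. Irf7 had one of -0.14 ± 0.176. By family, 8 of 9 Gbp genes, 5 of 6 Oas genes and 5 of 6 Ifit genes lay below 0, with medians of -0.17, -0.15 and -0.05. Over all 75 members, 51 lay below 0 and 24 above, with a median of -0.05, beside a median of 0.00 over all genes tested, of which 50.3% lay above 0. Beyond the 2 called genes, the only member with an unadjusted p under 0.05, where 8.8% of all genes had one, was Ifi203, a DNA-sensing HIN-200 family gene, with a log2 fold change of -0.38 ± 0.179 and an edgeR adjusted p of 0.543. Astrocyte marker genes lay below 0 in 5 of 5 and summed to 4219 ± 232 CPM in Q140, against 4828 ± 211 CPM in wild type (SD, n = 8 each), and Slc1a2, a glutamate transporter, was called lower (edgeR adjusted p = 0.0114). Excitatory neuron genes lay below 0 in 3 of 5 and summed to 6455 ± 156 CPM in Q140, against 6947 ± 285 CPM in wild type. The kinase gene Camk2a among them was called lower (edgeR adjusted p = 0.0294). Each of these 2 sums is mostly 1 gene. Over all libraries Slc1a2 averaged 4114 CPM of the astrocyte sum of 4501, and Camk2a 5120 CPM of the excitatory sum of 6857. The sums therefore largely repeat those 2 calls. Endothelial and mural marker genes lay below 0 in 10 of 10, and summed to 367 ± 14.8 CPM in Q140, against 397 ± 31.5 CPM in wild type (SD, n = 8 each). Microglial genes summed to 391 ± 22.7 CPM in Q140 and 393 ± 21.3 CPM in wild type. The part of these marker genes in the members' values was not tested.

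Other genes of the same pathways were examined in lists of 14 interferon receptor and JAK-STAT genes, 17 nucleic acid sensing genes, 35 further interferon-induced genes and 20 antigen processing partners. In Q140 over wild type 0 genes of these 4 lists were called by edgeR, beside 0.102% of all genes. At an unadjusted p under 0.05 there were 5, 4 lower and 1 higher, beside 8.8% of all genes. Of the 35 interferon-induced genes, 28 lay below 0, with a median log2 fold change of -0.07, where 50.3% of all genes lay above 0.

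**Figure D3:**
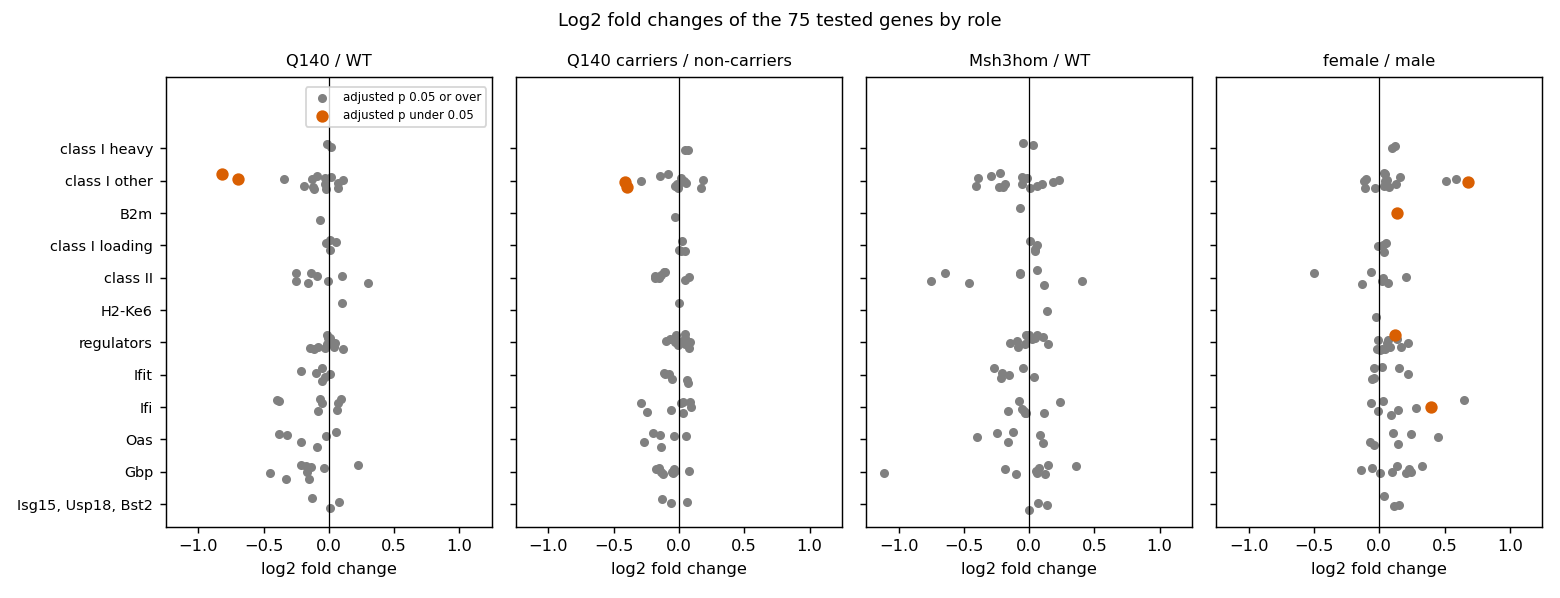
Log2 fold changes of the 75 tested genes by role for Q140 over wild type, Q140 carriers over non-carriers, Msh3-/- over wild type and female over male. Orange points have an adjusted p under 0.05: 2 genes below 0 in each Q140 panel, none in the Msh3-/- panel and 4 above 0 in the sex panel.

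The next comparisons asked how these genes differed in the Msh3 mutant genotypes without the Q140 allele. All comparisons with wild type share its 8 libraries. In Msh3-/- over wild type, 0 of 75 members were called by edgeR, where 0.113% of all genes were called, and 7 members had an unadjusted p under 0.05, 6 of them lower, where 10.8% of all genes did. DESeq2 also called 0. The lower values included the class II pair. H2-Ab1 ranged from 0.319 to 1.22 CPM in Msh3-/- with a median of 0.549, against 0.365 to 1.47 CPM with a median of 1.1 in wild type. Its log2 fold change was -0.75 ± 0.288 (SE) with an edgeR adjusted p of 0.371. H2-Aa, its partner chain, had a log2 fold change of -0.64 ± 0.304 with an edgeR adjusted p of 0.435, and H2-DMb1 one of 0.40 ± 0.179 with an adjusted p of 0.412. The class II genes thus lay on both sides of 0, with 3 of 8 above, beside 52.2% of all genes.

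Border macrophage and monocyte genes, from cells that carry class II, summed to 9.30 ± 2.98 CPM in Msh3-/-, against 10.1 ± 1.94 CPM in wild type (SD, n = 8 each), with ranges of 5.83 to 14.7 CPM and 7.70 to 14.1 CPM. Their part in the class II values was not tested. Among B cell and dendritic cell markers, Ms4a1 was at 0 in 40, Clec9a in 38 and Xcr1 in 43 of 48 libraries. Cd79a, Itgax and Flt3 of the same list were at 0 in 0 libraries, with means of 0.208, 0.259 and 17.3 CPM over all 48. Of the Ifit genes, Ifit2 had a log2 fold change of -0.16 ± 0.060 with an edgeR adjusted p of 0.365, and Ifit1bl1 one of -0.27 ± 0.103 with an edgeR adjusted p of 0.366. Irf2, a regulator that can repress interferon targets, had one of -0.14 ± 0.062 with an edgeR adjusted p of 0.409.

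In Msh3+/- over wild type, 0 of 75 members were called by edgeR and by DESeq2, where 0.0307% of all genes were called by edgeR. The members lay 37 above 0 and 38 below, beside 50.9% of all genes above, and 2 had an unadjusted p under 0.05, where 4.96% of all genes did, Gbp6 with 0.44 ± 0.191 and Gbp7 with -0.18 ± 0.086. Averaged over both Htt genotypes, Msh3-/- over Msh3 wild type gave 0 calls by edgeR and by DESeq2, beside 0.215% of all genes, and 6 members with an unadjusted p under 0.05, beside 14.9% of all genes. Among these, H2-Ab1 was at -0.59 ± 0.207 and Ifit1bl1 at -0.22 ± 0.072, with edgeR adjusted p values of 0.171 and 0.151. The average for Msh3+/- gave 0 calls by both tools, beside 0.0512% of all genes, and 4 members with an unadjusted p under 0.05, beside 8.14%.

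The Msh3 mutant genotypes in Q140 mice were the question of the remaining pairs, which share the 8 Q140 libraries. In Q140 Msh3-/- over Q140, 0 of 75 members were called by edgeR, beside 0.102% of all genes, while DESeq2 called 1, H2-Bl. H2-Bl ranged from 1.40 to 2.14 CPM in Q140 Msh3-/- with a median of 1.85, against 0.659 to 1.40 CPM with a median of 1.14 in Q140. No Q140 Msh3-/- library lay below the Q140 median. The log2 fold change was 0.69 ± 0.174 (SE) with an unadjusted p of 0.000216 and an edgeR adjusted p of 0.146. In all 7 members had an unadjusted p under 0.05, beside 6.86% of all genes, and each of them was higher. Of the 75 members 48 lay above 0 and 27 below, where 51.4% of all genes lay above. All 9 Gbp genes and both classical class I heavy chains lay above 0, with medians of 0.20 and 0.17, whereas 6 of 8 class II genes lay below 0 with a median of -0.11 and the 6 Ifit genes lay 3 on either side.

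A few libraries were high in several of these genes. H2-Q6 reached 6.73 CPM in Q140 Msh3-/- female 4 and 4.52 CPM in Q140 Msh3-/- male 3, with a median of 1.81 CPM in Q140 Msh3-/- and 1.34 CPM in Q140. H2-K1 reached 37.8 CPM in the same female, where the group median was 24.3 CPM, and Gbp4 7.16 CPM, where it was 2.59 CPM. H2-Q6 had a log2 fold change of 0.72 ± 0.304 (SE) with an edgeR adjusted p of 0.701, and H2-K1 one of 0.22 ± 0.099 with an edgeR adjusted p of 0.712.

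In Q140 Msh3+/- over Q140, 0 of 75 members were called by edgeR and by DESeq2, beside 0.0307% of all genes, and 2 had an unadjusted p under 0.05, where 6.22% of all genes did. They were H2-Bl with 0.38 ± 0.184 and H2-DMa with 0.20 ± 0.063 (log2, SE). H2-DMa averaged 9.14 ± 0.814 CPM in Q140 Msh3+/-, against 7.97 ± 0.581 CPM in Q140 (SD, n = 8 each), and its edgeR adjusted p was 0.694. Over Msh3-/-, Q140 Msh3-/- gave 0 calls by both tools beside 0.0205% of all genes, with 3 at an unadjusted p under 0.05 (6.77% of all genes), and over Msh3+/-, Q140 Msh3+/- gave 0 by both beside 0.0512%, with 6 at an unadjusted p under 0.05 (7.77%).

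The difference between the Q140 effects in Msh3-/- and in Msh3 wild type was itself tested, and 0 members and 0% of all genes were called by edgeR, with DESeq2 calling 0 members as well. Of the members 3 had an unadjusted p under 0.05, beside 3.2% of all genes. H2-Bl had the smallest p, with a log2 interaction of 0.92 ± 0.234 (SE), an unadjusted p of 0.000238 and an edgeR adjusted p of 0.931. H2-T-ps had 0.54 ± 0.220 and H2-Q6 1.13 ± 0.445, with adjusted p values of 1.0 each from edgeR. The Msh3+/- interaction also gave 0 calls by both tools, with 0 members at an unadjusted p under 0.05, beside 3.3% of all genes. Differences in the Q140 effect between Msh3 genotypes were therefore not detected.

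Of the 14 tests, the one for sex called the most members. Across all genotypes, 4 of 75 members were called, all higher in the 24 females than in the 24 males, beside 4.28% of all genes called in either direction and 2.65% called higher. A further 14 had an unadjusted p under 0.05, 13 of them higher in females, so that 18 of 75 had one, beside 17.4% of all genes. B2m ranged from 82.2 to 113 CPM in females with a median of 90.6, against 67.5 to 95.9 CPM with a median of 87.9 in males. The log2 fold change was 0.13 ± 0.0363 (SE) with an adjusted p of 0.0235 from edgeR. The ranges overlapped broadly and 17 of 24 females exceeded the male median.

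H2-Q6 ranged from 0.801 to 6.73 CPM in females with a median of 1.90, against 0.636 to 4.52 CPM with a median of 1.18 in males. Its log2 fold change was 0.68 ± 0.189 (SE) with an edgeR adjusted p of 0.0289, and the value was positive in 6 of 6 genotypes. The call was lost with the name prefix of the animals as a random block (limma adjusted p = 0.0642). Without the 9 libraries, most of them male, the call was lost too (edgeR adjusted p = 0.163). Its neighbours H2-Q5 and H2-Q7 had log2 fold changes of 0.59 ± 0.182 and 0.51 ± 0.186 with edgeR adjusted p values of 0.0504 and 0.109. Of its 50-base stretches, 32.0% occur in other genes, most often H2-Q7, so reads of these genes are uncertain.

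Ifi203 ranged from 0.891 to 3.0 CPM in females with a median of 1.52, against 0.568 to 1.75 CPM with a median of 1.26 in males. Its log2 fold change was 0.39 ± 0.105 (SE) with an edgeR adjusted p of 0.0197, positive in 5 of 6 genotypes. Ifi203 overlaps exons of Mndal on its own strand over 0.6% of its exon length. Of its 50-base stretches, 12.2% occur in other genes, most often Ifi203-ps. Without wild-type females 3 and 4 the edgeR adjusted p was 0.0361 for B2m, 0.0685 for Ifi203 and 0.0651 for H2-Q6, so that B2m kept its call and the other two lost theirs.

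Over all members, 55 lay above 0 by sex and 20 below, with a median of 0.06, beside a median of 0.00 over all genes, of which 49.8% lay above 0. Both classical heavy chains were above 0, with H2-K1 at 0.12 ± 0.058 and H2-D1 at 0.09 ± 0.038 (log2, SE) and edgeR adjusted p values of 0.263 and 0.160. Irf9 had 0.14 ± 0.046 with an edgeR adjusted p of 0.0756, and Gbp3 0.23 ± 0.073 with an edgeR adjusted p of 0.0589. The class II chain H2-DMb2 went the other way with -0.50 ± 0.168 and an edgeR adjusted p of 0.0773. In the lists around the members, Ly6e, an interferon-induced surface protein, was called higher in females and Psme1, a proteasome activator subunit, was called lower. By the same test 4.28% of all genes were called, and whether these lists held more calls than that share was not tested.

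Marker genes of other cell types, of blood and of pituitary were called by sex as well. The oligodendrocyte genes Mbp and Mobp were called higher in females, and the 4 genes of that list summed to 1744 ± 199 CPM in females and 1548 ± 187 CPM in males (SD, n = 24 each). The complement genes C1qa, C1qb and C1qc were called higher in females among 12 microglial markers, which summed to 402 ± 23.9 CPM in females and 393 ± 19.9 CPM in males (SD, n = 24 each). The 4 haemoglobin genes of the blood list were called higher in females, and the pituitary hormone genes Gh and Prl lower. The part of these cells, and of blood and pituitary RNA, in the members' sex differences was not tested.

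**Figure D4:**
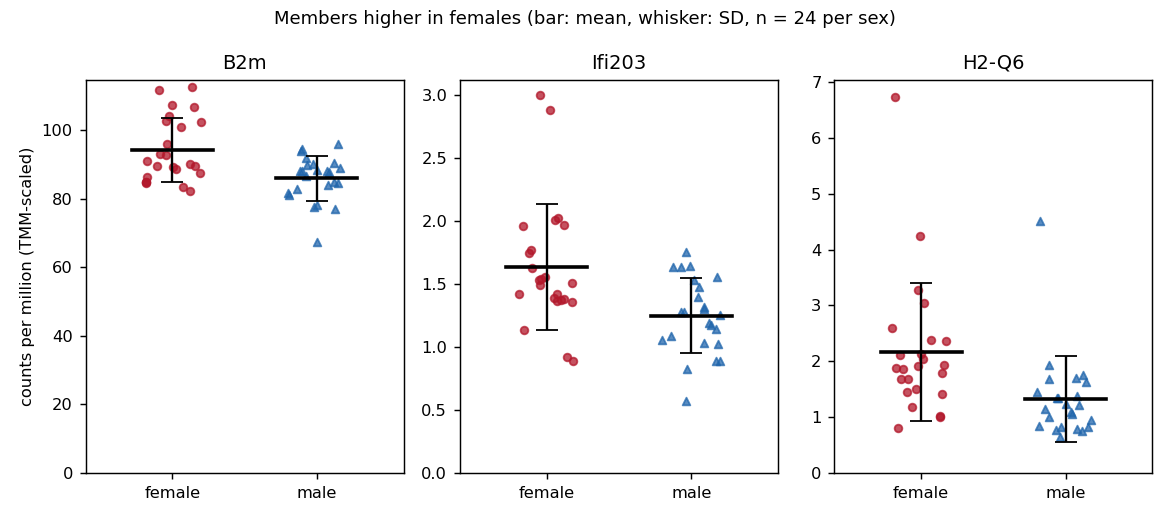
CPM of B2m, Ifi203 and H2-Q6, called by sex, in 24 female and 24 male libraries; bars are means and whiskers SD. Female means are above male means in each panel, at 94.3 CPM in females and 85.9 CPM in males for B2m, with overlapping points.

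Some members of 1 complex or region varied together between mice, and others did not. After the mean of each genotype and sex was removed from log2(CPM + 0.1), 4 gene pairs were correlated over 48 libraries, with p values from 100000 permutations adjusted over the 4 pairs. H2-Q6 and H2-Q7 had Pearson r = 0.796 and Spearman rho = 0.766, with adjusted permutation p values of 2e-05 each. Their raw p of 1e-05 is the smallest that these permutations can give. Without the 2 libraries farthest from the median of H2-Q6, r was 0.712, and within the 6 plate columns of 8 libraries it ran from 0.591 to 0.912. These genes share sequence, as given above.

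H2-Aa and H2-Ab1, which encode the chains of 1 heterodimer, had r = 0.634 and rho = 0.616, again with adjusted permutation p values of 2e-05. Without the 2 farthest libraries r was 0.581, and within plate columns it ran from 0.272 to 0.812. B2m and H2-K1 had r = 0.574 and rho = 0.560 with adjusted permutation p values of 4e-05 and 5.33e-05. Without the 2 farthest libraries r was 0.536, and within plate columns it ran from 0.483 to 0.773. H2-Bl and H2-T-ps had r = 0.188 and rho = 0.178, with raw permutation p values of 0.201 and 0.225 and the same values after adjustment. Their r was 0.0983 without the 2 farthest libraries and ran from -0.163 to 0.837 within plate columns.

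Members differed in their spread between mice of the same genotype and sex. The SD of log2 CPM was 0.09 for Stat2, the lowest of the tested members, and 0.30 at the median. It was 0.77 for H2-Aa, 0.85 for H2-Q1 and 0.89 for Gbp8. Counting error widens this SD for genes with few reads, and its part was not tested. Summed over 48 libraries, Gbp8 had 293 counts, H2-Q1 1131 and H2-Aa 2071, against 75314 for Stat2. Class II genes averaged within each library ranged from -0.83 in Q140 Msh3+/- female 1 to 0.51 in Msh3+/- male 1 as mean log2 differences from the 48-library mean. The regulators ranged from -0.17 to 0.18.

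**Figure D5:**
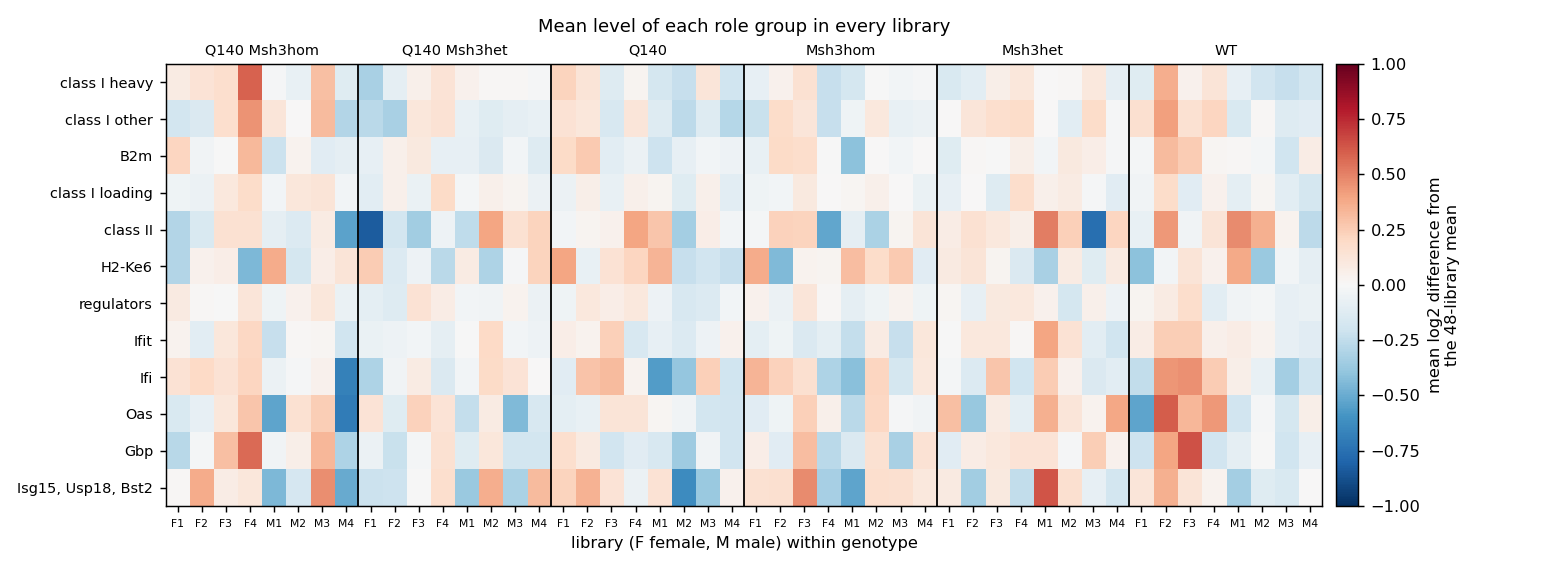
Mean log2 difference of each role group from its 48-library mean, in every library, with genotypes side by side. Class II runs from -0.83 to 0.51 and the regulators from -0.17 to 0.18, and Q140 Msh3-/- female 4 has the highest classical class I value at 0.59.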

How the data were processed

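RNA-seq libraries were made from total RNA with an Illumina TruSeq stranded kit, per the labels' protocols. Per the submitters' processing notes, the tools were STAR 2.7.5c, SAMtools 1.10 and HTSeq 0.12.3 and the builds mm10 and GRCm38, with no roles given. The annotation, the strand setting and the treatment of reads matching several genes are not given in the sources used here. The authors deposited whole-number counts per gene and FPKM values, which divide those counts by 1 length per gene and by the library total (checked for the members). One label, on extraction, names striatum and 6 months, whereas the others name cortex and 12 months, which are used here.

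Counts were tested with edgeR 4.0.16 (R 4.3.3): TMM scaling, filterByExpr by genotype, and a quasi-likelihood fit of genotype and sex over all 48 libraries, with Benjamini-Hochberg adjustment over 19547 genes in each of 14 tests. Calls have an adjusted p under 0.05. Genes left out by the filter held 0.0319% of counts. The fit was tested on simulated data. DESeq2 1.42.0 and limma 3.58.1 served alternatives, among them limma with the name prefix of the animals, shared across genotypes, as a random block. Coordinates and shared 50-base stretches come from GENCODE M21 on GRCm38.

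Genes were named by a rule: members called in any test, the 2 highest in FPKM per role, a list of well-known members, the 5 of largest spread between mice, and the 3 of smallest p in each direction in 4 comparisons. Values of 1 member that the rule names are not reported here, though it is in the counts and medians. Others are named as neighbours or as members with an unadjusted p under 0.05, after their values were seen. The members and all lists were chosen with earlier results of these data known. No label says whether library numbers pair mice; each library is a separate animal per its label. The closest pair of libraries of 1 genotype differed by 7 times the counting noise (chi-square per degree of freedom), so no library was taken for a copy of another. Counts from reads without molecular identifiers carry more than counting error.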

Additional observations from a re-analysis of the deposited data

Results flagged for a closer look

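In each genotype, the highest and the lowest of the 8 libraries were compared with their nearest neighbour for the 46 named members, 276 sets in all. A library was marked where its gap to the nearest one exceeded, as a share of the group's range, Dixon's critical value for 8 libraries, and chance alone marks about 1 set in 20. There were 14 such marks, in 11 members, about as many as that share of 276 sets gives by chance. They are listed as a description, and Q140 Msh3+/- male 2 carried 2 of them.

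Highest libraries stood apart for H2-T23 in Msh3+/- female 1 (13.8 CPM, nearest 11.7), H2-Ab1 in Msh3-/- female 2 (1.22, nearest 0.612), H2-Eb1 in Q140 Msh3+/- male 2 (1.58, nearest 0.778), Irf2 in Q140 male 3 (47.3, nearest 42.1) and Nlrc5 in Q140 female 4 (2.02, nearest 1.37). The same held for Ifit3 in Q140 Msh3+/- male 2 (9.69, nearest 7.01), Ifi203 in Msh3-/- female 1 (2.88, nearest 1.75) and Oasl2 in Msh3+/- male 1 (4.61, nearest 3.44). Gbp4 had 2: Msh3+/- male 3 (4.96, nearest 2.65) and Q140 Msh3-/- female 4 (7.16, nearest 4.06).

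Lowest libraries stood apart for H2-T23 in Q140 Msh3-/- male 4 (8.63 CPM, nearest 11.2), Tapbpl in Q140 Msh3-/- male 1 (6.38, nearest 8.06), Irf2 in Q140 Msh3-/- female 3 (31.6, nearest 37.2) and Gbp2 in Q140 male 2 (1.44, nearest 2.50). No library was marked in more than 2 members. The part of sequencing depth or tissue makeup in these values was not tested.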

How the results depend on the processing

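No called member changed direction under any alternative. The directions of uncalled values are not covered by this statement. In Q140 over wild type the 2 called members became 0 with a plate column term and 1 with only the 2 genotypes in the fit. They became 0 without the 9 libraries set apart by choroid plexus or pituitary genes, which leaves 4 wild-type libraries. Of the alternatives chosen after seeing the data, leaving out wild-type females 3 and 4 gave 0. Leaving out Msh3+/- male 2 and wild-type male 2 gave 1. The H2-Bl log2 fold change stayed between -0.88 and -0.79 over these alternatives and its adjusted p ran from 0.00228 (DESeq2) to 0.433. Leaving out each library in turn gave 0 to 2 called members. H2-Bl lost its call without Q140 female 3 (adjusted p = 0.103), Q140 male 2 (0.0585), or wild-type female 1 (0.0503), female 2 (0.0559) or male 2 (0.0694). H2-T-ps lost it in 25 of 48 such fits: in 11 without a library of the compared genotypes (Q140 females 1, 2 and 3 and males 2 and 4, wild-type females 1, 2 and 4 and males 1, 3 and 4; adjusted p from 0.0503 to 0.171) and in 14 without a library of another genotype (0.0503 to 0.0571). For Q140 carriers over non-carriers, both members were called in all 48 leave-one-out fits; the 2 became 1 (H2-Bl) with the plate column term and 0 without the 9 libraries. H2-Bl in the test of any genotype was 1 call in all 48 fits, became 0 without the 9 libraries, and DESeq2 called 2. Q140 Msh3-/- over Q140 went to 1 under DESeq2.

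By sex, the 4 called members became 2 with no filter on low counts, 3 with the plate column term, 3 with the name prefix as a random block in limma (H2-Q6 among those lost, Ifi27l2a gained), 1 without the 9 libraries, 2 without wild-type females 3 and 4, and 7 under DESeq2, and 2 to 7 over the leave-one-out fits. B2m was called under all 8 alternatives and all 48 leave-one-out fits. Ifi203 lost its call in 2 of the 8 and H2-Q6 in 4. H2-Q6 also lost it without Msh3-/- female 3, Q140 Msh3-/- female 4 or wild-type male 3 (adjusted p of 0.0519, 0.0566 and 0.0505). Counts of all genes called also moved between alternatives: from 20 to between 7 and 31 in Q140 over wild type, from 288 to between 84 and 463 for Q140 carriers, from 837 to between 428 and 980 by sex, from 88 to between 42 and 184 for any genotype, from 22 to between 12 and 23 in Msh3-/- over wild type, and from 42 to between 20 and 135 for the Msh3-/- average.

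Same-numbered libraries did not deviate together on average, with a mean r of 0.00922 over 120 pairs against -0.00301 over 360 other pairs. Of the 120 pairs, 10 were over 0.1, and the highest r was 0.382. Of the 48 libraries, 18 correlated best with their own number. No chance level is given for that count, so the check cannot decide whether the numbers pair some of the mice. A replicate block left 2 members called in Q140 over wild type and 2 for Q140 carriers, and 0 in the Msh3 comparisons. H2-Bl, H2-T-ps and most class II genes had few reads per library. H2-Aa and H2-Ab1 also had wide SDs of log2 CPM within genotype and sex, at 0.77 and 0.67. Changes of the size seen in class II could be missed with 8 libraries per genotype, and the power to call them was not tested.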
